A study of Mus musculus with 27 samples.

Results

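The step from 2 to 4 h of lipopolysaccharide (LPS) stimulation was examined in mouse bone marrow-derived macrophages (BMDMs) by comparing the 3 samples taken at 4 h with the 3 taken at 2 h. Genes were included if at least 3 of these 6 samples held 10 or more normalised read counts, which gave 10905 of the 45070 genes of the deposited table (24.2%). They held 99.3% of the normalised read counts of the 6 samples and comprised 9083 protein-coding genes, 1610 non-coding RNAs and 212 genes of other types. BMDMs are primary macrophages differentiated in culture from bone marrow, here from male wild type C57/BL6 mice aged 6 to 8 weeks. Cells of every group, the controls included, received the vehicle DMSO for 1 h. They were then left untreated, or given LPS or interleukin-4 (IL-4) at 10 ng/ml for 0.5, 1, 2 or 4 h, which makes 27 samples in 9 groups of 3 replicates. The RNA sequenced was chromatin-associated RNA, RNA still bound to the template, which follows transcription more closely than total RNA does. A normalised read count is the number of reads assigned to a gene after the authors' scaling of each library on invariant genes, rounded to a whole number.

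The 6 samples summed to between 3954399 and 4058199 normalised read counts at 2 h and between 3817735 and 3905856 at 4 h; since these values had been scaled, the sequencing depth behind them is unknown. Replicate 1 stood apart at both times. In the 818 genes whose mean was 1000 or more, log2 ratios between replicates had an SD of 0.135 at 2 h and 0.158 at 4 h for replicates 2 and 3, and of 0.377 to 0.474 for pairs that included replicate 1. Whether the replicates came from separate animals or cultures was not stated, so the p-values measure the spread between these samples, which may be technical. All 11 macrophage markers passed the filter on low values: 4 rose and 1 fell (36.4% and 9.09%, against 14.2% and 13.8% of all tested genes), with a median log2 fold change of 0.34. Of these calls, 1 rise and 1 fall held without each replicate in turn. The sum of the 11 markers lay between 11762 and 13130 at 2 h and between 13042 and 20023 at 4 h. Lyz2, the lysozyme of myeloid cells, was among those that rose, with 404, 430 and 382 normalised read counts at 2 h and 575, 882 and 777 at 4 h. Markers of other cells were low. The 12 neutrophil markers, of which 3 passed the filter, summed to between 35 and 168 at 2 h and to between 57 and 119 at 4 h. The 12 lymphocyte markers, of which 0 passed, summed to between 6 and 9 and between 4 and 6. The 10 mast cell and erythroid markers, of which 1 passed (Alas2), summed to between 48 and 70 and between 62 and 76. The 10 stromal cell markers summed to between 149 and 291 and between 177 and 347, with 5 tested and Pecam1, which vascular and some myeloid cells share, called higher. None of the tested neutrophil, mast cell and erythroid markers was called (limma; 0 at an unadjusted p under 0.05 and 0 with the replicate block). In bulk RNA, fewer cells of a type and less RNA per cell cannot be told apart.

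LPS is sensed by Toll-like receptor 4 (TLR4), whose adaptors lead through MyD88 to NF-κB and MAP kinases and through TRIF to IRF3 and interferon-β. Immediate early and primary NF-κB target genes are known to respond first, while secreted interferon-β and newly made transcription factors drive a later wave of interferon-stimulated and effector genes. Negative regulators induced in the same response, such as IκB proteins, dual-specificity phosphatases and SOCS family proteins, are known to limit it.

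From 2 to 4 h of LPS 3049 of the 10905 genes changed (28% of those tested; limma, adjusted p under 0.05), with 1547 higher at 4 h (14.2%) and 1502 lower (13.8%). The median log2 fold change was 0.96 among the rises, -0.95 among the falls and 0.02 over all tested genes. A rise of at least 2-fold was seen for 728 genes and a fall of at least 2-fold for 705, and 4-fold was reached by 127 rises and 158 falls. Without each replicate in turn, 1019 of these genes (9.34% of those tested) passed every time in the same direction, 458 of them rises and 561 falls. With replicate 2 left out 617 genes rose and 720 fell, and with replicate 3 left out 594 rose and 641 fell. The filter let a gene through on 1 time point alone in some cases: 169 tested genes had no value of at least 10 at 2 h, of which 140 rose, and 125 had none at 4 h, of which 100 fell, which the filter itself favours. Of the genes named below, Clic5, Fos, Gm35165, Gm41492 and A930035F09Rik passed the filter through the 4 h samples alone, and Cav1 and Lrrn3 through the 2 h samples alone, so their tests add little to their values.

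**Figure D1:**
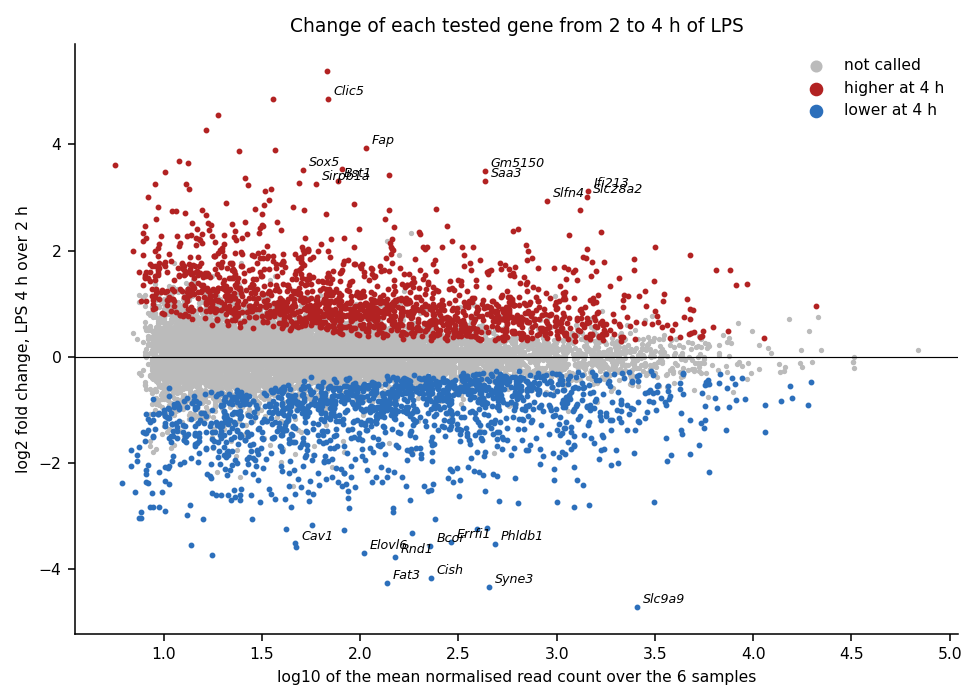
Log2 fold change of LPS 4 h over 2 h (y axis) against the log10 of the mean normalised read count over the 6 samples (x axis), 1 point per tested gene, with called rises in red, called falls in blue and other genes in grey. The 10 largest rises and the 10 largest falls among protein-coding genes with a mean of at least 50 in the higher group are named, and the fall of Slc9a9 (-4.72) and the rises of Ifi213 (3.12) and Slc28a2 (3.01) stand at high read counts.

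The largest rises belonged to genes that were near silent or low at 2 h. Clic5, a chloride intracellular channel family gene (chr17:44188572-44280168, plus strand, GRCm38.p6), held 6, 2 and 3 normalised read counts at 2 h in replicates 1 to 3 and 195, 104 and 100 at 4 h, and its log2 fold change was 4.86 ± 0.58 (± SE throughout, n = 3 per time, adjusted p = 1.75e-05). Fap, the serine protease fibroblast activation protein (chr2:62500936-62574021), held 7, 15 and 16 and then 153, 197 and 255 (3.94 ± 0.31, adjusted p = 2.9e-07). Clic5 passed the filter through its 4 h samples alone. In both genes every sample at 4 h was above every sample at 2 h, which was a condition of being named. None of the times before 2 h had reached more than 4 in Clic5 or 27 in Fap. Bst1, the ectoenzyme CD157, went from 13, 9 and 16 to 74, 163 and 186 (3.31 ± 0.51, adjusted p = 0.000196). Sox5, a SOX family transcription factor gene, held 23, 4 and 3 at 2 h and 58, 120 and 99 at 4 h (3.51 ± 0.87, adjusted p = 0.00663), and its call was lost without replicate 2 (adjusted p = 0.171) and without replicate 3 (0.0866).

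Interferon-inducible and acute phase genes were among the other large rises. Saa3, an acute phase serum amyloid A, held 71, 80 and 82 normalised read counts at 2 h and 696, 894 and 761 at 4 h, after 0 in all 3 untreated samples (log2 fold change 3.31 ± 0.36, adjusted p = 7e-06). Ifi213, an interferon-inducible PYHIN family gene, held 254, 287 and 341 and then 1950, 2540 and 3323 (3.12 ± 0.33, adjusted p = 5.41e-06). Slfn4, a Schlafen family gene, held 243, 191 and 180 and then 1180, 1569 and 2026 (2.93 ± 0.28, adjusted p = 1.76e-06). These 3 genes had already risen over untreated by 2 h (adjusted p between 4.24e-11 and 5.13e-07), and the untreated samples held at most 41 counts in Ifi213 and 3 in Slfn4. Slc28a2, a concentrative nucleoside transporter, held 148, 368 and 452 and then 1334, 2851 and 3398 (3.01 ± 0.51, adjusted p = 0.000435), with replicate 1 lowest at both times. Sirpb1a, a paired receptor of the signal-regulatory protein family, and Gm5150, a predicted gene of the same chromosome, followed a different course. Gm5150 held 70, 143 and 113 counts untreated, 14, 10 and 9 at 1 h, then 46, 66 and 97 by 2 h and 567, 745 and 1066 by 4 h (3.51 ± 0.34, adjusted p = 2.62e-06), and Sirpb1a held 24, 38 and 46, then 1, 4 and 2, then 12, 11 and 8, then 75, 114 and 137 (3.25 ± 0.35, adjusted p = 7.12e-06). Both were thus lower at 1 h than untreated and at 4 h above every untreated sample. Sirpb1a, Ifi213, Slfn4 and Saa3 belong to families with close copies, and since reads with several hits had been removed their levels are uncertain. The same may hold for Gm5150, which lies near Sirpb1a and whose promoter window, shown next, is almost the same.

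Windows of 30 bases are shown for those of the 10 largest rises whose RefSeq promoter (250 bases before to 50 after the start, GRCm38.p6, both strands searched) held the interferon-stimulated response element core GAAANNGAAA, to give the sequence beside the size of the rise. Capitals mark the match, positions count from 0 at the first transcribed base, and the strand is that of the gene.
Gm5150 (positions -240 to -231, chr3:16006553-16006582, minus strand): agggtcaaaaGAAAGAGAAAagataatgtt
Sirpb1a (positions -227 to -218, chr3:15426635-15426664, minus strand): agggtcaaaaGAAAGAGAAAggattatgtt
Saa3 (positions -125 to -116, chr7:46715782-46715811, minus strand): gttatcttctGAAAGAGAAAttatgggtaa
Ifi213 (positions -73 to -64, chr1:173599326-173599355, minus strand): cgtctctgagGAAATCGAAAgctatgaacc
Of the 7318 tested protein-coding genes with a promoter in the table (80.57% of 9083), 3.62% held this motif. The windows of Gm5150 and Sirpb1a begin with the same bases and are almost the same throughout, so they may not be independent examples. Of the genes described below, the rises Edn1 and Erap1 and the falls Mmp13 and Sgk1 held it on the other strand, and the rise Ddx60 and the fall Bcor on the strand of the gene, so that it was not limited to rises. Only 78.74% of the rises and 78.07% of the falls had a promoter in the table, and motif shares were not compared between them. A match is a description of the letters, not evidence of binding.

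The falls were led by Slc9a9, an endosomal sodium-proton exchanger gene that spans 561 kb (chr9:94669892-95230452, plus strand). It held 14239, 10203 and 10565 normalised read counts untreated, 5756, 4130 and 4895 at 2 h and 243, 148 and 174 at 4 h, 26.2-fold below the 2 h mean (log2 fold change -4.72 ± 0.20, adjusted p = 7.27e-10). It had been abundant from the start, and its fall in every replicate was required for it to be named. Syne3, which encodes the nuclear envelope protein nesprin-3, had first gone up, from 174, 278 and 287 untreated to 894, 773 and 937 at 2 h, and held 46, 42 and 38 at 4 h (-4.34 ± 0.18, adjusted p = 7.27e-10). Fat3, an atypical cadherin gene of 592 kb, held 331, 228 and 225 and then 17, 16 and 7 (-4.26 ± 0.26, adjusted p = 3.09e-08). All 3 genes ended at 4 h below every untreated sample. Elovl6, a fatty acid elongase, was low at 1 h (32, 6 and 14), reached 155, 146 and 285 at 2 h and held 10, 15 and 16 at 4 h (-3.70 ± 0.47, adjusted p = 2.92e-05).

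The remaining large falls were of genes induced earlier in the course. Cish, a SOCS family inhibitor of cytokine signalling, held 1, 5 and 1 counts untreated, 296, 523 and 482 at 2 h and 27, 19 and 22 at 4 h (-4.17 ± 0.38, adjusted p = 1.18e-06). Rnd1 went from 0, 2 and 1 untreated to 269, 252 and 323 at 2 h and 17, 23 and 19 at 4 h (-3.77 ± 0.32, adjusted p = 6.28e-07). Cish and Rnd1 peaked at 2 h, while the next 4 genes were past their peak by then. Errfi1, a feedback inhibitor of the epidermal growth factor receptor, held 2064, 2111 and 1810 at 0.5 h, 593, 481 and 522 by 2 h and 67, 45 and 32 by 4 h (-3.50 ± 0.19, adjusted p = 1.15e-08). Phldb1, a pleckstrin homology-like domain gene, held 2866, 2481 and 2612 at 1 h, 991, 825 and 855 by 2 h and 115, 67 and 57 by 4 h (-3.53 ± 0.20, adjusted p = 1.18e-08). Cav1, which encodes caveolin-1, held 271, 421 and 455 at 1 h, 86, 93 and 82 by 2 h and 7, 7 and 6 by 4 h (-3.52 ± 0.25, adjusted p = 1.02e-07). These 3 genes remained above their untreated values at 4 h. Bcor, the BCL6 corepressor gene, held 1101, 682 and 750 at 1 h, 486, 360 and 414 by 2 h and 47, 36 and 24 by 4 h (-3.56 ± 0.24, adjusted p = 6.62e-08), which was below its untreated values of 107, 88 and 97. Each of these 10 falls was called also without each replicate in turn. For Cav1, which passed the filter through its 2 h samples alone, these calls add little to its values. Slc9a9, Syne3, Elovl6, Bcor and Errfi1 overlap annotated non-coding genes, as does Sox5 among the rises.

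**Figure D2:**
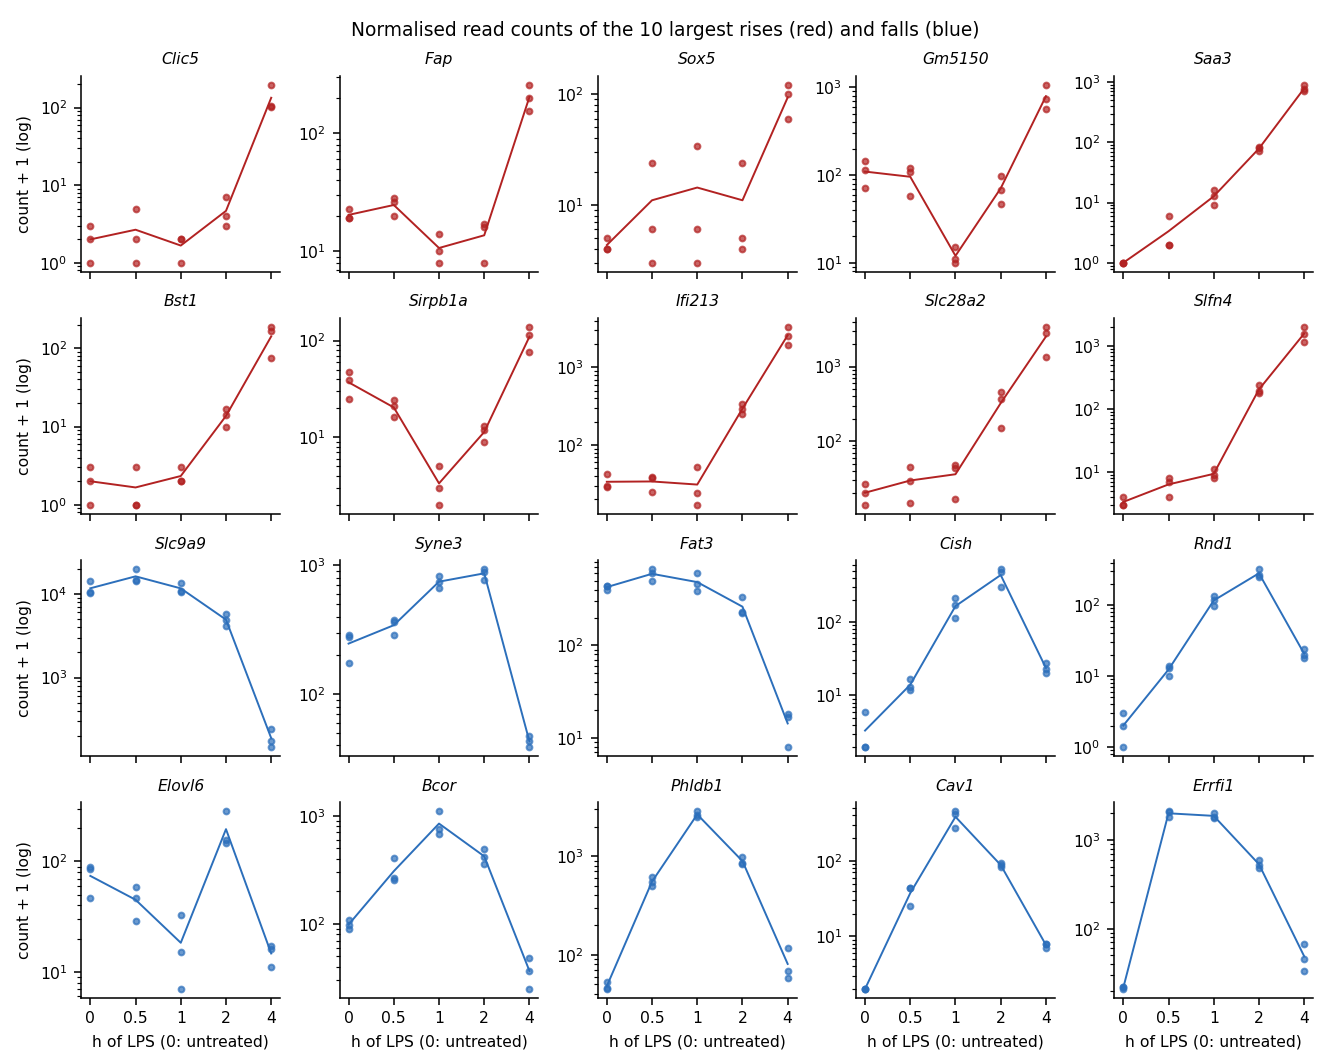
Normalised read count plus 1 (log y axis) of the 10 largest rises (red) and 10 largest falls (blue) in untreated samples and over the 4 times of LPS (x axis, h, times evenly spaced and not to scale), with a point per replicate and a line through the means. The last step is up in all 10 red panels and down in all 10 blue panels, which is how they were chosen; Errfi1, Phldb1, Cav1 and Bcor peak at 0.5 or 1 h, Cish and Rnd1 at 2 h.

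For the falls, matches to the STAT-type motif TTCNNNGAA in Cish and to the AP-1 motif TGANTCA in Slc9a9 are shown with the same conventions, since Cish is known to be induced through STAT5 and Slc9a9 fell most. In Cish the pair of matches lies at and just after the start.
Cish (positions 0 to 8, chr9:107296649-107296678, plus strand): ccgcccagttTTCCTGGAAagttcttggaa
Cish (positions 11 to 19, chr9:107296660-107296689, plus strand): tcctggaaagTTCTTGGAAatctgtcaaag
Slc9a9 (positions -96 to -90, chr9:94669785-94669814, plus strand): tctttccagagTGAATCAtttaaagacaga
TTCNNNGAA was in 6.98% and TGANTCA in 4.95% of the promoters of tested protein-coding genes.

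The course before 2 h was then set beside the late step, using the 1 h and untreated samples, which the late comparison does not use, although one fit gave the error for both. At 1 h 64.8% of the tested genes differed from untreated, 29.5% higher and 35.3% lower. Among the 1502 genes that fell from 2 to 4 h, 778 (51.8%) had been raised at 1 h and 314 (20.9%) lowered. Among the 1547 that rose, 341 (22%) had been raised at 1 h and 768 (49.6%) lowered. More of the falls than of all tested genes had thus been raised early, and more of the rises had been lowered early. The 778 genes raised early and falling late had a median log2 fold change over untreated of 1.58 at 1 h, 1.46 at 2 h and 0.46 at 4 h, and the 768 genes lowered early and rising late one of -1.37, -1.41 and -0.46. Movement towards the untreated level is set by this choice of genes, and at the median neither group had reached that level by 4 h. The 341 genes raised early that rose again stood at 1.21 at 2 h and 2.07 at 4 h, and the 314 lowered early that fell further at -1.06 and -1.97. Genes not called at 1 h made up 438 of the rises and 410 of the falls, with medians of 0.86 and -1.02 at 4 h.

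This split depended on the scaling between LPS and untreated samples. When libraries were scaled to equal totals, the median of all tested genes at 1 h moved from -0.11 to -0.67, and 1992 genes were called higher and 5773 lower than untreated at 1 h, against 3217 and 3849 before. Of the falls from 2 to 4 h, 39% then counted as raised and 35.3% as lowered at 1 h, and of the rises 14.7% and 64.7%. Over all 10905 tested genes, the 1992 and 5773 give the matching shares. The falls still held a larger share of raised genes than all tested genes did, and the rises a larger share of lowered ones. The median of the late step itself moved little, from 0.02 to 0.07.

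**Figure D3:**
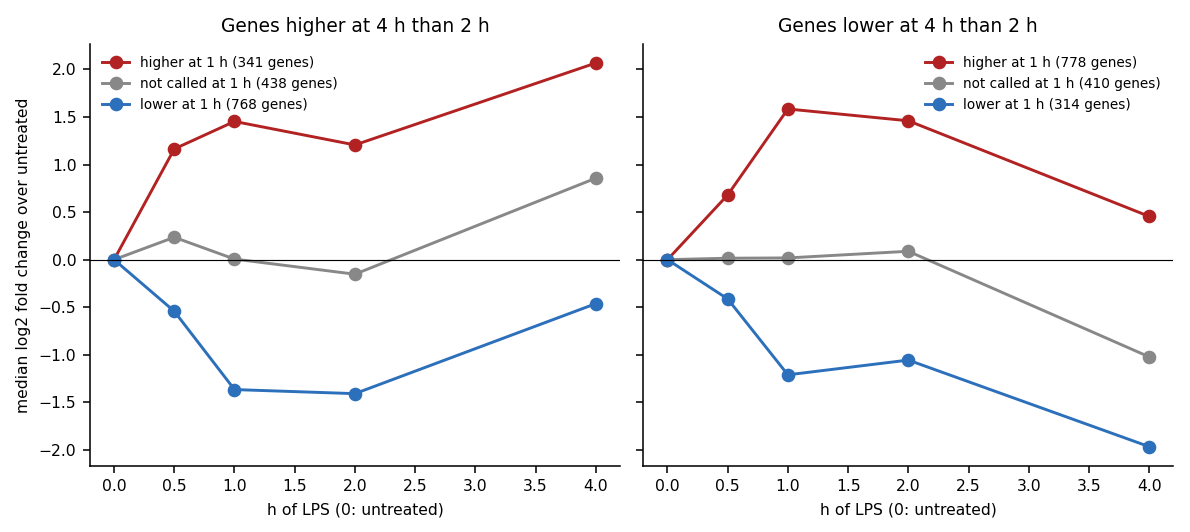
Median log2 fold change over untreated (y axis) against h of LPS (x axis) for genes higher (left) or lower (right) at 4 h than at 2 h, divided by their call at 1 h against untreated. The 768 rises lowered at 1 h return from -1.41 at 2 h to -0.46 at 4 h, and the 778 falls raised at 1 h from 1.46 to 0.46; the late direction of each panel is set by the choice of genes.

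Among 33 tested late LPS effector genes 15 rose and 3 fell, against 14.2% and 13.8% of all tested genes, with a median log2 fold change of 0.77 beside 0.02 over all. Of these calls, 8 rises and 3 falls held without each replicate in turn, a count given for each list from here on. Edn1, the endothelin-1 gene, held 57, 26 and 33 normalised read counts at 2 h and 221, 229 and 232 at 4 h (2.60 ± 0.36, adjusted p = 7.12e-05). Cfb, complement factor B, held 76, 112 and 132 and then 393, 515 and 530 (2.18 ± 0.36, adjusted p = 0.000357). Saa3 was described above. Nos2, the inducible nitric oxide synthase, held 413, 719 and 643 and then 1820, 2232 and 2357 (1.88 ± 0.33, adjusted p = 0.000591), and had been near 0 until 0.5 h. The calls of these genes held without each replicate. Their 2 time points did not overlap, which for all but Nos2 was a condition of being named. The cytokine Il6 held 209, 199 and 210 and then 401, 398 and 366 (0.91 ± 0.30, adjusted p = 0.0322), a call lost without replicate 2 (adjusted p = 0.166), without replicate 3 (0.141) and when low values were not filtered (0.0517).

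The members that fell did not share this course. Il12b, the p40 subunit of interleukins 12 and 23, peaked at 1 h with 663, 535 and 451 counts and held 175, 164 and 189 at 2 h and 47, 42 and 30 at 4 h (-2.14 ± 0.19, adjusted p = 8.96e-07). Mmp13, a collagenase, rose from 5, 10 and 4 untreated to 2261, 2518 and 3043 at 2 h and then held 669, 872 and 766 (-1.76 ± 0.33, adjusted p = 0.000979). The coagulation initiator F3 was the third. Acod1, which makes itaconate, held 7880, 8562 and 8100 at 2 h and 11256, 11459 and 11619 at 4 h, which did not pass the test (0.49 ± 0.23, adjusted p = 0.133; 0.0469 with replicate number as a block).

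Primary NF-κB targets went the other way: 13 of 29 tested fell and 2 rose (44.8% and 6.9%, against 13.8% and 14.2% of all tested genes), with a median of -0.45. Without each replicate, 7 falls and 1 rise held. Cxcl1, a neutrophil chemokine, held 43, 65 and 54 counts at 2 h and 11, 10 and 3 at 4 h (-2.75 ± 0.36, adjusted p = 3.83e-05). Icam1, the adhesion molecule, held 2732, 2762 and 2646 and then 1162, 1115 and 870 (-1.38 ± 0.11, adjusted p = 2.85e-07). Il1a, interleukin-1α, held 417, 427 and 397 and then 194, 151 and 142 (-1.36 ± 0.43, adjusted p = 0.0267), a call lost without replicate 2 (0.186). All 3 were still far above untreated at 4 h. The other falls included the NF-κB subunit genes Relb, Nfkb1 and Nfkb2 and the IκB family genes Bcl3, Nfkbie and Nfkbid, named because they passed the test. Ptgs2, the inducible cyclooxygenase, rose from 354, 708 and 592 to 1273, 2865 and 2772 (2.03 ± 0.34, adjusted p = 0.000379). Sod2, mitochondrial superoxide dismutase, went from 1185, 1050 and 1090 to 1676, 1580 and 1638 (0.56 ± 0.13, adjusted p = 0.00534), a call lost without replicate 2 (0.0871) or 3 (0.118).

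Several well known members were not called. Tnf held 1405, 1651 and 1508 counts at 2 h and 1155, 1166 and 1029 at 4 h (-0.45 ± 0.20, adjusted p = 0.113; 0.0333 with the replicate block). Il1b held 1272, 1312 and 1248 and then 1647, 1525 and 1241 (0.19 ± 0.31, adjusted p = 0.698), with the time points overlapping. Nfkbia, which encodes IκBα, held 1490, 2236 and 2056 and then 1365, 1904 and 1762 (-0.19 ± 0.18, adjusted p = 0.482), and the ubiquitin editor gene Tnfaip3 held 5002, 3572 and 4523 and then 3609, 2666 and 2574 (-0.57 ± 0.21, adjusted p = 0.0506; 0.00164 with the block). In Nfkbia and Tnfaip3 the times overlapped, although each replicate number was lower at 4 h.

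The immediate early genes were divided, with 4 of 18 tested higher and 3 lower (6 and 6 with the replicate block) and a median of 0.11, which became -0.09 among genes with a mean of at least 50. These shares of 22.2% and 16.7% lie near the 14.2% and 13.8% of all tested genes, and 0 of the rises and 2 of the falls held without each replicate. Nr4a3, an orphan nuclear receptor, fell from 98, 65 and 86 to 33, 19 and 17 (-1.85 ± 0.32, adjusted p = 0.000503), and the MAP kinase phosphatase Dusp5 fell from 189, 116 and 125 to 78, 44 and 39 (-1.43 ± 0.24, adjusted p = 0.000399). The related Dusp2 fell from 248, 221 and 237 to 151, 126 and 125 (-0.81 ± 0.19, adjusted p = 0.00405). The AP-1 genes rose from low values, Fos, which passed the filter through 4 h alone, from 8, 7 and 7 to 11, 25 and 27 (1.31 ± 0.39, adjusted p = 0.0187) and Jun from 25, 40 and 42 to 47, 83 and 74 (0.91 ± 0.25, adjusted p = 0.0123). Klf6, a Krüppel-like factor, went from 942, 940 and 946 to 1054, 1362 and 1340 (0.40 ± 0.11, adjusted p = 0.0124). The calls of Dusp2, Fos, Jun and Klf6 were lost without replicate 2 or without replicate 3 (adjusted p between 0.059 and 0.261), and those of Jun (0.0533) and Klf6 (0.0576) when the error came from the 6 samples alone. Egr1 did not pass the filter, with 3, 0 and 1 at 2 h and 4, 4 and 8 at 4 h after 291, 233 and 380 at 0.5 h.

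Of 14 tested CC and CXC chemokine genes 3 fell and 0 rose, with a median of -0.02 (limma; 2 were higher at an unadjusted p under 0.05 and 0 with the replicate block). Rises made up 0%, against 14.2% of all tested genes. The falls made up 21.4%, against 13.8% of all, and 2 held without each replicate. Besides Cxcl1, these were Cxcl9, an interferon-γ-induced T cell chemokine that went from 164, 157 and 157 to 30, 31 and 24 (-2.46 ± 0.39, adjusted p = 0.000241), and Cxcl2, which went from 136, 127 and 142 to 91, 83 and 68 (-0.74 ± 0.23, adjusted p = 0.0218; 0.268 without replicate 3). Most of the earlier rise of Cxcl9 came between 1 and 2 h. It had held 0, 0 and 0 untreated, 3, 1 and 4 at 0.5 h and 8, 4 and 2 at 1 h, which was already above untreated (limma, adjusted p = 7.4e-05). Ccl5 held 4311, 4579 and 5045 and then 3186, 3393 and 3318 (-0.49 ± 0.30, adjusted p = 0.253), and Cxcl10 held 1424, 1917 and 1920 and then 1313, 1661 and 1579 (-0.20 ± 0.15, adjusted p = 0.355). Neither passed the test. Cxcl1 and Cxcl2 carried the NF-κB motif GGGANTTTCC, present in 0.451% of the promoters of tested protein-coding genes, and Il6, which moved the other way, carried it too.
Cxcl1 (positions -71 to -62, chr5:90891164-90891193, plus strand): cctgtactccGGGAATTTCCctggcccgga
Cxcl2 (positions -97 to -88, chr5:90903792-90903821, plus strand): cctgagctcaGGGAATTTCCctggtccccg
Il6 (positions -44 to -35, chr5:30013060-30013089, plus strand): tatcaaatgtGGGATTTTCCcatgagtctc

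Feedback inhibitors of TLR and cytokine signalling fell in 7 of 28 cases and rose in 4, with a median of -0.17. The falls made up 25%, against 13.8% of all tested genes, and the rises 14.3%, the same as the 14.2% of all within rounding, with 4 falls and 2 rises held without each replicate. Cish and Dusp5 were among the falls, as was Bcl3, an atypical IκB protein, with 540, 553 and 620 counts at 2 h and 331, 294 and 261 at 4 h (-0.95 ± 0.12, adjusted p = 2.26e-05). Irak3, the kinase-dead inhibitor IRAK-M, rose from 678, 566 and 529 to 1801, 1543 and 1557 (1.47 ± 0.14, adjusted p = 1.67e-06). The receptor antagonist Il1rn rose from 245, 398 and 443 to 533, 1621 and 1610 (1.67 ± 0.38, adjusted p = 0.0041) and the TBK1 adaptor Tank from 3275, 3129 and 3042 to 4497, 4822 and 5184 (0.62 ± 0.11, adjusted p = 0.000449). Il1rn lost its call without replicate 2 (0.1) or 3 (0.0748). Tank was at 0.05 without replicate 3. Irak3 and Bcl3 kept theirs without each replicate. Socs3 held 483, 414 and 462 and then 392, 463 and 426 (-0.09 ± 0.20, adjusted p = 0.806), and the anti-inflammatory cytokine Il10 held 186, 190 and 191 and then 114, 126 and 167 (-0.49 ± 0.25, adjusted p = 0.156).

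The list of kinases of TLR4 and JAK-STAT signalling also held kinases not usually counted to either pathway, such as Sgk1 and Stk17b. Of its 43 tested genes 13 fell and 5 rose (14 and 8 with the replicate block), with a median of -0.09. These were 30.2% and 11.6%, against 13.8% and 14.2% of all tested genes, and 8 falls and 2 rises held without each replicate. Mapkapk3, a kinase downstream of p38, went from 462, 400 and 428 to 63, 56 and 37 (-3.06 ± 0.16, adjusted p = 6.88e-09). Map2k4, which activates JNK and p38, went from 2641, 2446 and 3014 to 734, 816 and 855 (-1.75 ± 0.11, adjusted p = 2.71e-08), and Sgk1 from 63, 52 and 81 to 21, 24 and 19 (-1.55 ± 0.19, adjusted p = 2.66e-05). The p38α gene Mapk14 and its activator Map2k3 were also among the falls, as were Jak1, Ripk1 and Ripk2. Of the rises, Stk17b went from 46, 44 and 50 to 108, 156 and 204 (1.67 ± 0.20, adjusted p = 1.91e-05), which left it below its untreated values of 644, 656 and 772. Mknk1, a kinase of the translation factor eIF4E, went from 188, 267 and 237 to 292, 369 and 315 (0.50 ± 0.14, adjusted p = 0.0116), a call lost without replicate 2 (0.0761) or 3 (0.12) and with the error of the 6 samples alone (0.0627).

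**Figure D4:**
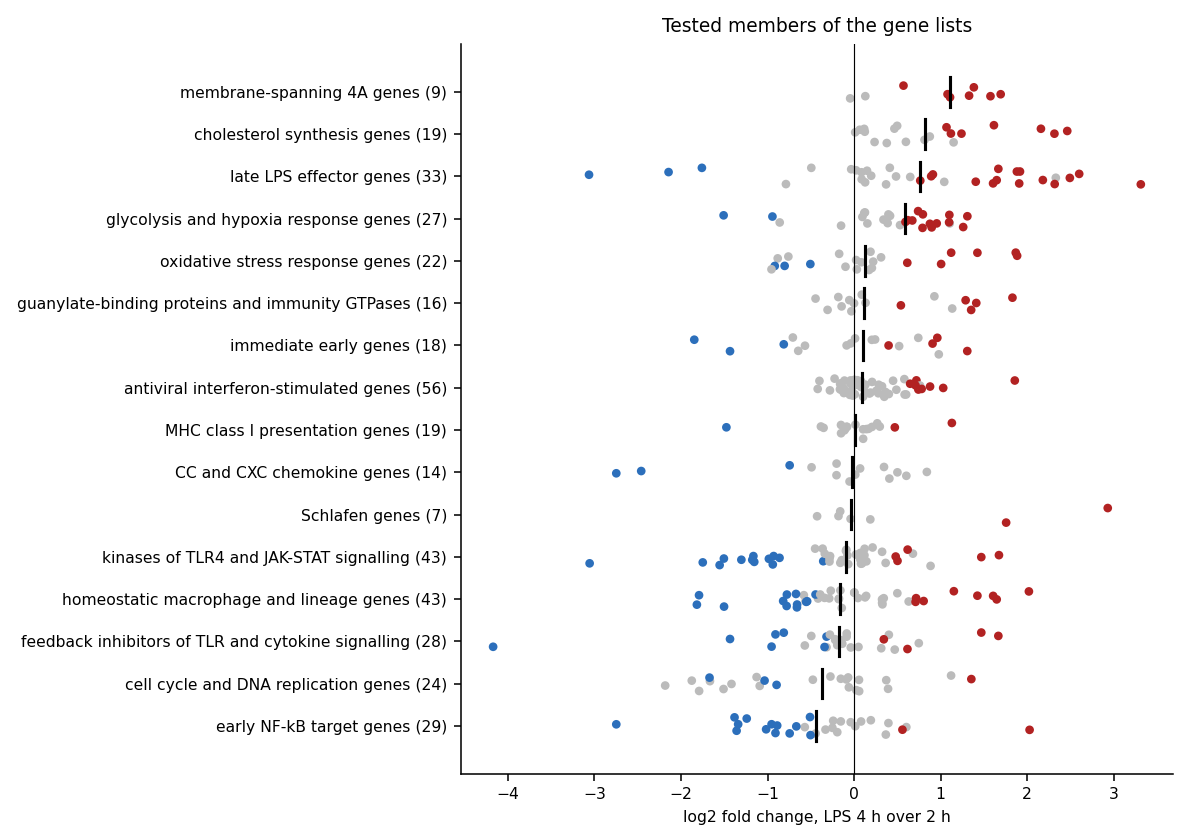
Log2 fold change of LPS 4 h over 2 h (x axis) for each tested member of the gene lists (y axis, number of tested members in brackets), with called rises in red, called falls in blue, other members in grey and the list median as a black bar; points are spread vertically for legibility. Medians run from -0.45 for early NF-κB targets to 1.11 for membrane-spanning 4A genes.

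Antiviral interferon-stimulated genes stood at about the same level at both times. At the median they stood 4.06 ± 0.21 log2 units above untreated at 2 h and 4.22 ± 0.12 at 4 h (SD of 3 replicate medians), and of 56 tested 8 rose, a share close to the 14.2% of all tested genes, while 0 fell (limma; 0 at an unadjusted p under 0.05 and 0 with the replicate block). Falls thus made up 0%, against 13.8% of all tested genes. Of the rises, 2 held without each replicate. Ifi44 rose from 292, 334 and 332 to 931, 1223 and 1362 (1.86 ± 0.37, adjusted p = 0.00166) and the RNA helicase gene Ddx60 from 2668, 3890 and 3996 to 5964, 6292 and 6862 (0.88 ± 0.14, adjusted p = 0.000298). Irf7, the transcription factor that amplifies interferon production, rose from 528, 711 and 704 to 988, 1467 and 1557 (1.03 ± 0.25, adjusted p = 0.00562), a call lost without replicate 2 (0.0992). Of the most abundant members, Mx1 held 17290, 14734 and 16096 and then 22585, 21391 and 23450 (0.49 ± 0.32, adjusted p = 0.294), and Rsad2, viperin, held 13727, 11157 and 11164 and then 11227, 13258 and 13063 (0.06 ± 0.30, adjusted p = 0.911). Neither passed the test, and Rsad2 overlapped between the times. Ifnb1, the inducer of the family, was not tested: it held 17, 16 and 5 at 1 h, 2, 1 and 0 at 2 h and 0 in all 3 samples at 4 h. Ddx60 held a pair of response element cores close to its start.
Ddx60 (positions -53 to -44, chr8:61928024-61928053, plus strand): gtgatgaatgGAAACCGAAActtaaagctt
Ddx60 (positions -19 to -10, chr8:61928058-61928087, plus strand): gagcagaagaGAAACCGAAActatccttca

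Related interferon-responsive families gave a like picture with a few strong risers. Of 16 tested guanylate-binding proteins and immunity GTPases 5 rose and 0 fell (limma; 1 fell at an unadjusted p under 0.05 and 1 with the replicate block), with a median of 0.11. The rises made up 31.2%, against 14.2% of all tested genes, and 1 held without each replicate. Falls made up 0%, against 13.8% of all. Gbp6 rose from 146, 200 and 190 to 513, 692 and 711 (1.83 ± 0.41, adjusted p = 0.00373), and Gbp4 from 200, 184 and 166 to 428, 486 and 494 (1.35 ± 0.39, adjusted p = 0.0167; 0.164 without replicate 2). F830016B08Rik, an interferon-inducible GTPase, rose from 54, 34 and 27 to 94, 81 and 100 (1.29 ± 0.30, adjusted p = 0.00467; 0.0843 without replicate 2 and 0.125 without replicate 3). These families hold close copies, so their levels are uncertain. Of 7 tested Schlafen genes 2 rose (28.6%, against 14.2% of all tested genes), namely Slfn4 and Slfn1, and 1 of them held without each replicate. The share that fell was 0, against 13.8% of all (limma, also 0 at an unadjusted p under 0.05 and 0 with the block), and the median was -0.04. Slfn1 rose from 272, 197 and 220 to 555, 772 and 1073 (1.76 ± 0.53, adjusted p = 0.0221, and 0.181 without replicate 2).

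MHC class I presentation genes were close to level, with 2 of 19 higher, 1 lower (2 with the replicate block) and a median of 0.02. Both shares, 10.5% and 5.26%, were below those of all tested genes, and 0 rises and 1 fall held without each replicate. H2-T24, a non-classical class I gene, rose from 398, 373 and 434 to 781, 938 and 926 (1.13 ± 0.22, adjusted p = 0.0014; 0.0774 without replicate 2), and Erap1, a peptide-trimming aminopeptidase, from 207, 209 and 206 to 287, 316 and 263 (0.47 ± 0.14, adjusted p = 0.0174; 0.21 without replicate 2 and 0.107 without replicate 3). Irf1, the transcription factor counted in this list, fell from 1725, 1413 and 1439 to 757, 491 and 438 (-1.48 ± 0.28, adjusted p = 0.00103), and it kept its call without each replicate. The membrane-spanning 4A genes, a cluster of immune cell surface proteins on chromosome 19, had the highest list median, 1.11. Of 9 tested 7 were higher (77.8%, against 14.2% of all tested genes), 4 of them without each replicate too. The share lower was 0, against 13.8% of all (limma, also 0 at an unadjusted p under 0.05 and 0 with the block). Ms4a4c rose from 360, 574 and 604 to 1150, 1802 and 2050 (1.69 ± 0.30, adjusted p = 0.000577), Ms4a4a from 511, 286 and 296 to 1127, 731 and 939 (1.38 ± 0.23, adjusted p = 0.000336) and Ms4a4d from 182, 372 and 390 to 944, 872 and 856 (1.58 ± 0.40, adjusted p = 0.00832; 0.0643 without replicate 2 and 0.0664 without replicate 3). Replicate 1 was lowest in Ms4a4c and highest in Ms4a4a, at both times.

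Homeostatic macrophage and lineage genes moved in both directions, with 12 of 43 lower, 8 higher and a median of -0.16. These were 27.9% and 18.6%, against 13.8% and 14.2% of all tested genes, and 4 falls and 2 rises held without each replicate. Irf8, a lineage factor also induced by LPS, fell from 1895, 1193 and 1412 to 468, 403 and 386 (-1.82 ± 0.28, adjusted p = 0.000194). Mrc1, the mannose receptor, fell from 393, 285 and 401 to 112, 103 and 92 (-1.79 ± 0.19, adjusted p = 7e-06), and the endocytic adaptor Dab2 from 1950, 1522 and 1947 to 492, 678 and 760 (-1.50 ± 0.19, adjusted p = 2.53e-05). For Mrc1 and Dab2, which untreated cells express at 1541 to 2386 and 2907 to 3130 counts, the late fall continued one seen by 2 h. Other genes lowered by 2 h rose again. P2ry12, a purinergic receptor, held 90, 81 and 76 untreated, 18, 15 and 26 at 2 h and 65, 78 and 104 at 4 h (2.02 ± 0.34, adjusted p = 0.000402), and the lineage factor Maf held 736, 520 and 409, then 326, 179 and 182, then 845, 571 and 628 (1.61 ± 0.31, adjusted p = 0.00121). The scavenger receptor Cd36 rose from 34, 60 and 51 to 83, 157 and 161 (1.43 ± 0.35, adjusted p = 0.00628; 0.0907 without replicate 2 and 0.0645 without replicate 3). Csf1r, the receptor for the macrophage growth factor, held 2052, 1814 and 2048 untreated, 427, 501 and 441 at 2 h and 522, 627 and 566 at 4 h (0.32 ± 0.13, adjusted p = 0.0697; 0.0233 with the replicate block), and Cx3cr1 held 2, 26 and 29 and then 7, 36 and 35 (0.71 ± 0.74, adjusted p = 0.531).

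Of the markers of identity, 2 more were named by the rule. Tyrobp, the signalling adaptor DAP12, rose from 34, 33 and 36 to 59, 81 and 82 (1.07 ± 0.21, adjusted p = 0.00123), and the lysosomal protein gene Cd68 from 64, 90 and 88 to 104, 187 and 147 (0.82 ± 0.24, adjusted p = 0.0177). Both calls were lost without replicate 2 (0.0536 and 0.183) or 3 (0.0617 and 0.13). Lyz2 rose by 0.86 ± 0.15 (adjusted p = 0.000616). The most abundant tested markers of other cells were not called, namely Ngp with 57, 11 and 14 and then 39, 21 and 19, Pdgfrb with 50, 102 and 72 and then 104, 91 and 68, and Alas2 with 46, 59 and 64 and then 72, 70 and 53.

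Cholesterol synthesis genes had a median of 0.81, with 7 of 19 higher and 0 lower (limma; 9 and 0 with the replicate block and at an unadjusted p under 0.05). Falls made up 0%, against 13.8% of all tested genes. The rises made up 36.8%, against 14.2% of all, but 1 of the 7 held without each replicate. The median was 0.48 with a pseudocount of 8, 0.42 among genes with a mean of at least 50 and 0.535 without replicate 3. Lss, lanosterol synthase, went from 39, 38 and 41 untreated to 3, 16 and 10 at 2 h and 26, 85 and 53 at 4 h (2.46 ± 0.60, adjusted p = 0.00601). Nsdhl, a sterol dehydrogenase, rose from 10, 38 and 25 to 44, 85 and 82 (1.62 ± 0.39, adjusted p = 0.0062) and the methylsterol oxidase Msmo1 from 23, 50 and 49 to 58, 118 and 114 (1.24 ± 0.35, adjusted p = 0.0138). Replicate 1 was lowest in all 3 genes at both times, and all 3 calls were lost when replicate 3 was left out (adjusted p between 0.0797 and 0.142); those of Lss (0.0601) and Msmo1 (0.0879) were also lost without replicate 2. The other called members were Hsd17b7, Sqle, Cyp51 and Fdft1.

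Glycolysis and hypoxia response genes rose in 13 of 27 cases and fell in 2 (48.1% and 7.41%, against 14.2% and 13.8% of all tested genes), with a median of 0.59. Without each replicate, 3 of the 13 rises and both falls held. The risers included the glycolytic enzyme genes Pkm, Eno1, Gapdh and Aldoa and the transporters of glucose and lactate Slc2a1 and Slc16a3. Hk3, a hexokinase of myeloid cells, rose from 652, 362 and 332 to 1179, 953 and 1065 (1.31 ± 0.23, adjusted p = 0.000608). Pgam1, phosphoglycerate mutase, rose from 20, 15 and 30 to 40, 52 and 65 (1.26 ± 0.45, adjusted p = 0.0488), and the mitophagy receptor Bnip3 from 21, 26 and 25 to 54, 38 and 70 (1.10 ± 0.34, adjusted p = 0.0236). Both of these calls were weak: Pgam1 lost its call without replicate 2 (0.116) or 3 (0.228), without the filter (0.081) and with median-of-ratios scaling (0.0508), and Bnip3 without any 1 of the replicates (between 0.0509 and 0.19). The hexokinase Hk2 went against its list, from 994, 650 and 692 to 362, 259 and 206 (-1.51 ± 0.28, adjusted p = 0.000842), as did the platelet-type phosphofructokinase Pfkp, from 1293, 923 and 1015 to 550, 541 and 572 (-0.94 ± 0.17, adjusted p = 0.000601).

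Oxidative stress response genes rose in 6 of 22 cases and fell in 3 (5 with the replicate block), with a median of 0.13. The rises made up 27.3%, against 14.2% of all tested genes, and the falls 13.6%, close to 13.8%, with 1 rise and 0 falls held without each replicate. Hmox1, heme oxygenase 1, held 103, 68 and 92 untreated, 34, 16 and 15 at 2 h and 96, 75 and 64 at 4 h (1.88 ± 0.41, adjusted p = 0.00266; 0.0822 without replicate 2), and ferritin heavy chain Fth1 rose from 415, 643 and 673 to 1107, 2854 and 2778 (1.87 ± 0.30, adjusted p = 0.000252). Txnrd1, thioredoxin reductase, fell from 1323, 748 and 770 to 655, 465 and 371 (-0.92 ± 0.22, adjusted p = 0.00583; 0.0618 without replicate 2 and 0.0893 without replicate 3), and the autophagy receptor Sqstm1 from 485, 345 and 254 to 215, 239 and 155 (-0.80 ± 0.22, adjusted p = 0.0116; 0.0893 without replicate 2). Both had peaked at 0.5 h. Cell cycle and DNA replication genes had a median of -0.38, with 1 of 24 higher and 3 lower, or 2 and 11 with the replicate block. The 12.5% lower was close to the 13.8% of all tested genes, and the 4.17% higher was below the 14.2% of all. Without each replicate 1 fall and 0 rises held, and the median was -0.19 with a pseudocount of 8 and -0.61 with sample weights. Cdk6, a G1 kinase, went from 8350, 7430 and 8506 to 2814, 2577 and 2257 (-1.67 ± 0.14, adjusted p = 5.6e-07), and the inhibitor Cdkn1a from 1593, 1343 and 1266 to 968, 845 and 514 (-0.90 ± 0.25, adjusted p = 0.0141; 0.114 without replicate 2 and 0.0817 without replicate 3).

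Non-coding RNAs were called about as often as all tested genes (26.6% against 28%). Of 1610 tested, 244 were higher and 185 lower, while the protein-coding genes held 1284 rises and 1309 falls. Among those that overlap no other gene, Gm1720 (chrX:166662025-166689812) rose from 7, 10 and 8 to 101, 87 and 79 (3.27 ± 0.26, adjusted p = 3.6e-07), and Gm34589 (chr14:102818164-102834758) fell from 70, 106 and 105 to 19, 21 and 13 (-2.34 ± 0.28, adjusted p = 1.59e-05). AU020206 fell from 98, 138 and 154 to 42, 58 and 67 (-1.21 ± 0.22, adjusted p = 0.000641). The calls of Gm30474 (1.73 ± 0.47, adjusted p = 0.0116), Gm52350 (1.69 ± 0.47, adjusted p = 0.0145) and 2500002B13Rik (-1.01 ± 0.26, adjusted p = 0.00844) were lost without replicate 2 or 3 (between 0.0664 and 0.186). Of all tested genes, 4370 overlap a gene on the other strand and 1795 one on the same strand, and since the counting was not stated to use strand, reads of such pairs cannot be told apart.

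To see which changes were not shared with another stimulus, the LPS step was tested against the IL-4 step from 2 to 4 h in one fit of all 27 samples. The difference passed in 1712 genes (15.7%), with the LPS step higher in 843 (7.73%) and lower in 869 (7.97%; 1308 genes with the replicate block), while 415 genes changed from 2 to 4 h of IL-4, 150 up and 265 down. Slc9a9 held 11574, 9894 and 9719 counts at 2 h and 11373, 8978 and 9776 at 4 h of IL-4, and its LPS step was lower by a log2 difference of -4.67 ± 0.27 (adjusted p = 2.26e-11). Syne3 held 155, 201 and 213 and then 159, 238 and 228 (-4.46 ± 0.32, adjusted p = 8.66e-10). Cish held 195, 207 and 248 and then 193, 284 and 284 in IL-4, a step that did not pass the test (0.21, adjusted p = 0.877), and differed from it by a fall in LPS (-4.38 ± 0.46, adjusted p = 3.21e-07). Elovl6 (-4.06) and Lrrn3 (-3.85), a leucine-rich repeat gene with 10, 14 and 27 and then 6, 0 and 4 counts in LPS and 22, 20 and 29 and then 74, 62 and 68 in IL-4, completed the 5 largest differences of this direction. Lrrn3 lies within Immp2l, and its fall in LPS was lost without replicate 3 (0.0952).

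In the other direction the 5 largest differences were those of Gm35165 (5.50), Gm5150 (4.61), Clic5 (4.53), Gm41492 (4.52) and A930035F09Rik (4.49). The non-coding Gm35165 held 3, 1 and 3 counts at 2 h and 120, 133 and 145 at 4 h of LPS, at least 44.2-fold higher against a floor of 3 counts per library, and 6, 7 and 7 and then 5, 5 and 9 in IL-4. It lies within Itpr1, the inositol trisphosphate receptor gene. Untreated samples held 14, 12 and 21 counts of Gm35165, so its 2 h values had been lowered by LPS (limma, log2 fold change -2.36, adjusted p = 7.37e-06). Gm35165, Gm41492, A930035F09Rik and Clic5 passed the filter through the 4 h samples of LPS alone, which favours their place in this order. Gm41492 held 1, 1 and 2 and then 43, 57 and 112 in LPS, at least 23.6-fold higher, and at most 1 in every IL-4 sample. Clic5 was likewise at most 1 in IL-4 at both times. A930035F09Rik held 25, 69 and 87 untreated, 2, 8 and 8 at 2 h and 23, 86 and 83 at 4 h of LPS. Its rise thus ended near the untreated level (limma, 0.04 over untreated, adjusted p = 0.951). In IL-4 A930035F09Rik went from 6, 8 and 8 to 2, 2 and 3, which adds to the difference. Not every late change differed between the stimuli by this test. Cdk6 fell also from 2 to 4 h of IL-4, from 901, 695 and 859 to 410, 200 and 247 (-1.57, adjusted p = 1.42e-05), and its steps differed by -0.10 ± 0.27 (adjusted p = 0.877). Dab2 fell from 7069, 8483 and 9454 to 3691, 3755 and 4164 (-1.10, adjusted p = 0.000195), with a difference of -0.40 ± 0.23 (adjusted p = 0.287). Fat3 fell with both, from 282, 209 and 195 to 84, 48 and 30 in IL-4, and more with LPS (-2.09 ± 0.42, adjusted p = 0.000967; 0.0576 without replicate 2). Of the 61 genes named by the rule whose steps differed, 26 lost that call without at least 1 replicate.

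The late changes also varied with gene span, the distance from the start to the end of the annotated gene. Falls made up 6.35% of 1606 protein-coding genes under 10 kb, 10.1% of 3151 genes of 10 to 30 kb, 17.1% of 2932 of 30 to 100 kb, 27% of 1135 of 100 to 300 kb and 30.5% of 259 over 300 kb. Rises went from 10.5% and 12.9% to 14.7%, 21.1% and 15.8% in the same order. The median log2 fold change moved from 0.09 under 10 kb to -0.24 over 300 kb. In replicates 1, 2 and 3 it was 0.14, 0.10 and 0.05 under 10 kb and -0.14, -0.30 and -0.36 over 300 kb, so the order held in each pair of samples. Among genes raised at 1 h, 13.9% fell late when under 10 kb and 42.9% when over 300 kb (454 and 77 genes), while 10.8% and 3.9% rose. Among genes lowered at 1 h, 16.2% rose late when under 10 kb and 39.6% when over 300 kb (390 and 48 genes), while 2.56% and 18.8% fell. Falls had a median span of 55.9 kb, rises 35.3 kb and all tested protein-coding genes 28.2 kb. The median of the genes' mean counts also differed between these bins, with 30.1, 55.5, 139, 245 and 160 normalised read counts from the shortest to the longest, and its part in these shares was not tested.

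**Figure D5:**
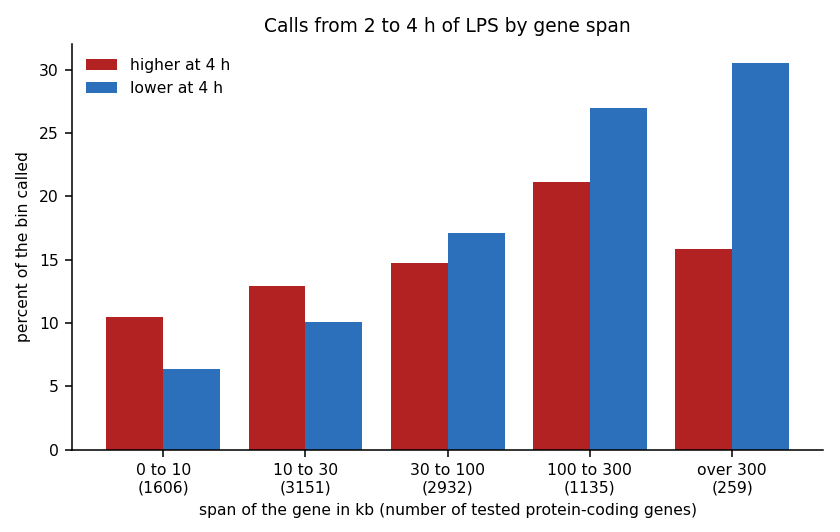
Percent of tested protein-coding genes called higher (red) or lower (blue) at 4 h than at 2 h of LPS (y axis) by gene span in kb (x axis, number of genes in brackets). The share of falls goes from 6.35% under 10 kb to 30.5% over 300 kb, and that of rises peaks at 21.1% between 100 and 300 kb.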

How the data were processed

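Chromatin-associated RNA of BMDMs was made into Smart-seq2 libraries with random primers (5 ng of RNA) and sequenced in single reads of 76 bases. Per the study's methods and the submitters' processing notes, the authors aligned with TopHat2 2.1.1 to mm10, dropped multiply mapped and blacklisted reads (bedtools 2.29.2), counted per gene over GRCm38.p6 and scaled on invariant genes. The unit is a score: the authors rounded these scaled counts to whole numbers before they were deposited. No count model was therefore run, and the depth per sample is unknown. Strand use is not given in the sources used here.

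Samples were grouped by their labels. Values were tested as log2(value + 1), which understates changes of low genes, with limma 3.58.1 in R 4.3.3 (mean-variance trend, Benjamini-Hochberg over all 10905 tested genes, threshold 0.05). The late step was fitted with the 15 samples of the LPS course, the difference from the IL-4 step with all 27. The fit was also run on simulated counts with planted changes. These held no replicate effect, so that check does not cover the way replicate 1 stands apart here. The study's impulse model was not run.

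The members and the 21 gene lists, written from general knowledge, were chosen with earlier results of these data known. Named genes were the 10 largest called protein-coding rises and falls (mean of at least 50 in the higher group, replicates not overlapping), up to 3 each way among non-coding genes overlapping no gene and in each list (or its most abundant member), the 5 largest differences from the IL-4 step each way, and 20 fixed genes. Other list members are named only because they passed. Bounds use a floor of 3 counts per library. Promoters are RefSeq's (GRCm38.p6).

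The main fits used group means alone and did not pair samples. In the replicate block, an alternative, replicate numbers were taken to pair the samples, from the data and not the labels. Deviations of same-numbered samples at 2 and 4 h correlated at 0.610, 0.367 and 0.392. Differently numbered ones ranged from -0.496 to 0.355, the highest for replicate 2 with 3, so replicates 2 and 3 are hardly told apart. Replicates 2 and 3 were not copies (chi-square of 17.4 and 28.6 per gene). Alternatives changed the pseudocount, filter, scaling, block, sample weights and samples used.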

Additional observations from a re-analysis of the deposited data

Results flagged for a closer look

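Results are listed here because the change from 2 to 4 h differed between LPS and IL-4 by a test of the difference itself (limma interaction, 27 samples, adjusted p under 0.05). This held for 1712 genes, of which the LPS step was higher in 843 and lower in 869. Groups had 3 samples, so single samples far from the others were not looked for.

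Of the 61 genes given here, 35 kept the call of this difference without each replicate in turn, and 26 lost it without at least 1 (adjusted p between 0.0506 and 0.347). Without replicate 2 and also without replicate 3 it was lost by Bcl3, Bst1, Cfb, Dusp5, Fos, Gbp4, H2-T24, Hk2, Hmox1, Irf1, Irf7, Irf8, Maf, Slc28a2, Sqstm1, Stk17b and Tank. It was lost without replicate 3 alone by Edn1, Icam1, Mrc1, Ms4a4c, Pfkp and Sirpb1a, without replicate 2 alone by Fat3, without replicate 1 or 2 by Il1a (0.078 and 0.209), and without any 1 of them by Erap1 (0.0566, 0.129 and 0.165). Maf (0.056 and 0.0609) and Hmox1 (0.0562 and 0.0764) lost it also with median-of-ratios scaling and with no filter, and Il1a (0.0509) with no filter.

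Among the largest rises, the LPS step exceeded the IL-4 step on the log2 scale by 4.53 in Clic5, 3.75 in Fap, 4.61 in Gm5150, 3.31 in Saa3, 3.11 in Bst1, 2.18 in Sirpb1a, 3.94 in Ifi213, 2.64 in Slc28a2 and 2.98 in Slfn4. Among the largest falls it was lower, by a difference of -4.67 in Slc9a9, -4.46 in Syne3, -2.09 in Fat3, -4.38 in Cish, -3.44 in Rnd1, -4.06 in Elovl6, -3.14 in Bcor, -3.61 in Phldb1, -3.35 in Cav1 and -3.43 in Errfi1. The non-coding genes differed by 3.61 in Gm1720, -2.22 in Gm34589, -1.62 in AU020206, 5.50 in Gm35165, 4.52 in Gm41492 and 4.49 in A930035F09Rik, and Lrrn3 by -3.85.

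Inflammatory genes differed by -2.37 in Dusp5, -3.08 in Cxcl1, -1.78 in Icam1, -2.22 in Il1a, 2.80 in Edn1, 2.03 in Cfb, -2.14 in Il12b, -3.53 in Mmp13, -2.46 in Cxcl9, -1.85 in Bcl3, 1.64 in Irak3, 0.53 in Tank and 2.05 in Fos. Kinase genes differed by 1.08 in Stk17b, -3.13 in Mapkapk3, -1.79 in Map2k4 and -2.43 in Sgk1. Interferon-responsive and class I genes differed by 3.44 in Ifi44, 1.19 in Irf7, 1.45 in Ddx60, 2.13 in Gbp4, 1.20 in H2-T24, 0.60 in Erap1, -1.67 in Irf1, 2.77 in Ms4a4c and 1.58 in Ms4a4a. Lineage and metabolic genes differed by 2.97 in P2ry12, 1.39 in Maf, -1.70 in Irf8, -1.11 in Mrc1, 2.00 in Hk3, -1.62 in Hk2, -1.03 in Pfkp, 1.72 in Hmox1 and -1.06 in Sqstm1. Many of these differences rest on IL-4 samples with counts near 0, where 1 count moves the IL-4 step. Among them are those of Mmp13, Il12b, Cxcl9, Cxcl1, Saa3, Edn1, Clic5, Bst1, Slfn4, Rnd1, Cav1, Gm1720, Gm41492, Il1a, Fos and Ifi44. The IL-4 step was -1.58 in Ifi44 and 0.86 in Il1a, each from a few counts.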

How the results depend on the processing

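No result named here changed direction while called under any alternative run. For 4 h against 2 h of LPS, the 3049 calls (1547 higher, 1502 lower) became 1411 (666, 745) with replicates 2 and 3 averaged and 4811 (2406, 2405) with sample weights. Leaving out 1 replicate gave 1235 to 4135 calls, 594 to 1982 higher and 641 to 2153 lower, with the highest counts without replicate 1. With the replicate block 4124 genes were called, 3048 of them among the 3049. The mean filter of 50 tested 6073 genes and no filter 24799.

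For the difference from the IL-4 step, the 1712 calls (843 higher, 869 lower) became 646 (300, 346) with replicates 2 and 3 averaged and 3219 (1566, 1653) with sample weights. They were 562 to 2803 (264 to 1269 higher, 280 to 1534 lower) with 1 replicate left out, and 1308 lower with the replicate block. The block without replicate 1, chosen after seeing the data, gave 2897 (1310 higher, 1587 lower). For 1 h against untreated, a mean of at least 50 left 4327 calls (1835 lower), no filter gave 5932 lower and equal totals 1992 higher. The cause was not tested, except that filters change the genes tested.

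Of the genes named, 31 lost their call of the late step without replicate 2, 27 without replicate 3, 1 without replicate 1 and 29 with replicates 2 and 3 averaged; the block added 4 and took away 0. The call of the difference from IL-4 was lost by 20, 24, 2 and 19 under these settings in the same order, and the block added 13. The median of Schlafen genes lay between -0.16 and 0.14. Unknown depth and low counts limit Clic5, Bst1, Cxcl1, Fos and the cholesterol genes, where a few reads decide the values.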
